A study of Mus musculus with 8 samples.

Results

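The Abcam-only peaks in later introns were 2117 intervals of chromatin-associated RNA, out of 6319 Abcam-only peaks and 17068 peaks of the series in all. A peak was a member when its midpoint, on its own strand, lay in intron 2 or any later intron of the representative transcript of a gene and in no exon of such a transcript. Each gene was represented by 1 transcript, chosen for the greatest coding length in coding genes and for the greatest length in noncoding genes (GENCODE vM21, mouse assembly mm10). Of the remaining Abcam-only peaks, 2292 had their midpoint in an exon, 974 in a first intron and 936 in neither, so that later introns held 33.5% of the Abcam-only peaks (95% Wilson interval, 32.3 to 34.7%). They held 7.09% of the peaks of confidence group 2 (Cfg2; 388 of 5472) and 4.79% of those of confidence group 1 (Cfg1; 253 of 5277).

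The series measured N6-methyladenosine (m6A) in E14 cells, a mouse embryonic stem cell line kept undifferentiated in serum with leukaemia inhibitory factor (LIF), by m6A immunoprecipitation and sequencing of chromatin-associated RNA (ChrMeRIP-seq). There were 4 groups of 2 libraries each, namely Abcam_ChrMeRIP with Abcam_Input and SySy_ChrMeRIP with SySy_Input, where Abcam and SySy (Synaptic Systems) are the suppliers of the 2 anti-m6A antibodies and no group carried a mutation or treatment. The deposited intervals are pooled calls over the duplicates of an antibody. Cfg1 held peaks called with both antibodies, Cfg2 held SySy-called peaks with only subthreshold Abcam signal, and Cfg3 (confidence group 3) held those called with Abcam alone. By the study's methods the antibodies were used with different library kits, so a difference between Abcam-only and SySy-called peaks cannot be told apart from a difference between kits. No value per library, peak height or depth came with the intervals, and the intervals quoted here cover the counting of peaks only.

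Most of a mammalian pre-mRNA is intron, and introns are removed by splicing while the RNA is still largely attached to chromatin. m6A is written in the nucleus by the METTL3-METTL14 complex at adenosines within the DRACH consensus, of which GGACT (written here as DNA) is the best known form, and in mature mRNA it lies mainly in long exons and near stop codons. Introns carry their own sequence landmarks, with a purine-containing 5′ splice site and a pyrimidine tract just before the 3′ splice site.

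The members were mostly purine-rich stretches of RNA rather than stretches rich in the core m6A motif, and the following sequences show both kinds. Each is the deposited interval read 5′ to 3′ on the peak's strand from the GRCm38.p6 assembly, with every GGACT and every uninterrupted run of at least 12 purines (A or G) in capitals. The first pair are the members with the most copies of GGACT, 7 in the gene of the centromere protein Cenpi and 4 in that of the centrosome linker protein Cep250, and 84.0% of the Cenpi interval is soft-masked, a mark that the assembly gives to repeats and low-complexity sequence.
Cenpi, intron 7, chrX:134320944-134321193, plus strand: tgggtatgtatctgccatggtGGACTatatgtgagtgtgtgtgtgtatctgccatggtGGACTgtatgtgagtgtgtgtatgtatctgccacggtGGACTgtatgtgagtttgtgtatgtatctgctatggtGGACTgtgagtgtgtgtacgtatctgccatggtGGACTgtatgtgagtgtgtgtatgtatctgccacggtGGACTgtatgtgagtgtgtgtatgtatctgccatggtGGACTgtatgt
Cep250, intron 28, chr2:155993171-155993420, plus strand: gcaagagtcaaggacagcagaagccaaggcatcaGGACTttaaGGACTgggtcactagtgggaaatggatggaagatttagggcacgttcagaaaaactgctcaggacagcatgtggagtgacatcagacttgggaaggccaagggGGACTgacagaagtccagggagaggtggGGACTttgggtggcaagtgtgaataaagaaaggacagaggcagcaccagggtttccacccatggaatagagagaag
Next stands 1 of the 3 members with the longest purine runs, 103 nt in the DNA end-joining gene Xrcc4, which holds no GGACT and is wholly soft-masked.
Xrcc4, intron 3, chr13:90014178-90014285, minus strand: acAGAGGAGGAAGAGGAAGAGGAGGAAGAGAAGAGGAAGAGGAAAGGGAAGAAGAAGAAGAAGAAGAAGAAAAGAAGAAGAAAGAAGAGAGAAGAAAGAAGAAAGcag
A shorter run of 36 nt is seen in Exoc4, in the member with the longest run of that gene, which was among the genes with the most members and was chosen after the gene counts were seen.
Exoc4, intron 7, chr6:33394571-33394676, plus strand: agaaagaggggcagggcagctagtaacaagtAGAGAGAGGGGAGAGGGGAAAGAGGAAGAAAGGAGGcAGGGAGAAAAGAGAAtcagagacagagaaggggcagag
Among the members exonic in another transcript the most copies of GGACT were 2, held by a member in Acin1 and by the following member in the mismatch repair gene Pms1.
Pms1, intron 4, chr1:53263068-53263190, minus strand: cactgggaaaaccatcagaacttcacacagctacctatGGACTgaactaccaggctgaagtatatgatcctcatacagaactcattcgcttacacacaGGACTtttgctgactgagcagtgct
For comparison, the SySy-called later-intron peak of a coding gene with the most GGACT, 4 copies, lay in Dyrk1a, a protein kinase gene that also held 6 members in the same intron, and it too was chosen with values in view.
Dyrk1a, intron 2, chr16:94620189-94620438, plus strand: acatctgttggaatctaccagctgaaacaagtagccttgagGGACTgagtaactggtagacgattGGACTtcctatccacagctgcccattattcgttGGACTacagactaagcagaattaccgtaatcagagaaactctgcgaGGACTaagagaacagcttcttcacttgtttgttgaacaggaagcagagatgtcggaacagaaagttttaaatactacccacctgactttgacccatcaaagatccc

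Purines made up 66.2% of the bases of the members and 48.9% of the bases in the rest of their host introns. By base, the members were 34.4% G, 31.8% A, 19.3% T and 14.6% C, and the rest of the introns were 22.1% G, 26.7% A, 30.2% T and 20.98% C. The purine share of a single member averaged 66.0 ± 9.45% (SD, n = 2117), with a median of 66.0% and quartiles of 61.9 and 71.0%. It was higher than that of the whole host intron in 2030 members (95.9%). Set against every window of the same width in its own intron, the purine share of a member stood at a median percentile of 95.8 (2105 members with an intron at least as long as the peak). First-intron Abcam-only peaks had the same median purine share, 66.0%, and SySy-called later-intron peaks had 51.9%. At least 70% purines were found in 23.6% of members at 70 to 80% and in a further 5.20% above that, against 0.312% of SySy-called later-intron peaks at 70 to 80% and none of 641 above.

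**Figure D1:**
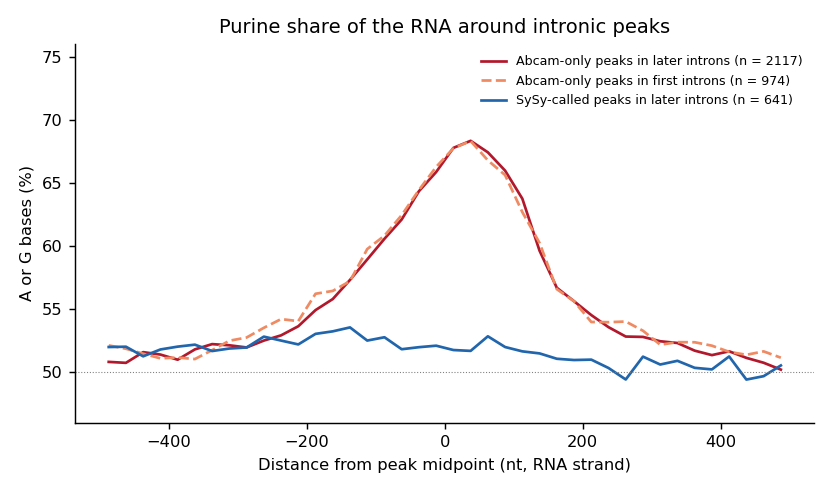
Percentage of A or G bases in 25-nt bins (y axis) by distance from the peak midpoint on the RNA strand (x axis, nt), averaged over the peaks of each set. Both Abcam-only sets rise to 68.3% just past the midpoint and return to between 50.2 and 52.1% at the edges, while SySy-called later-intron peaks stay between 49.4 and 53.6% throughout.

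The excess of purines was local. In 25-nt bins around the midpoint of the members it was highest at 68.3%, from 25 to 49 nt past the midpoint, and was 50.8% in the bin that starts 500 nt upstream and 50.2% in the bin that ends 499 nt downstream, as the profile of purine share shows. At the same distances the SySy-called later-intron peaks had 51.7%, 52.0% and 50.5%.

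Uninterrupted purine runs of 12 nt or more were present in 860 members (40.6%, 38.6 to 42.7%). Over all windows of the peaks' widths in the same introns the share was 12.5%. The mirror feature, a run of 12 pyrimidines (C or T), was present in 41 members (1.94%, 1.43 to 2.62%), against 11.4% of all windows. Among members with a purine run, the median length of the longest was 15 nt, and 240 members (11.3%) had a run of 20 nt or more. Runs of 30 nt or more were found in 4.77% of members and of 50 nt or more in 38, while 2 SySy-called later-intron peaks had a run of 20 nt or more and none of 641 reached 30 nt.

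The purine run share of the members, 40.6%, was far above the 8.11% of SySy-called later-intron peaks (52 of 641, 6.24 to 10.5%). The difference was 32.5 percentage points (29.4 to 35.3 by Newcombe's method at 95%, adjusted p = 1.2e-61 by Fisher's exact test, two-sided, with Benjamini-Hochberg adjustment over 14 tests). It was higher on 19 of 19 chromosomes with at least 10 peaks of each kind. Against first-intron Abcam-only peaks, with 39.9% (389 of 974), the difference was 0.685 points and did not pass the test (-3.05 to 4.38, exact test, adjusted p = 0.78). Within the 135 genes that held both members and SySy-called later-intron peaks, the shares were 38.4% (114 of 297) in members and 6.996% (17 of 243) in SySy-called peaks, a difference of 31.4 points (24.8 to 37.6, exact test, adjusted p = 1.3e-17).

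**Figure D2:**
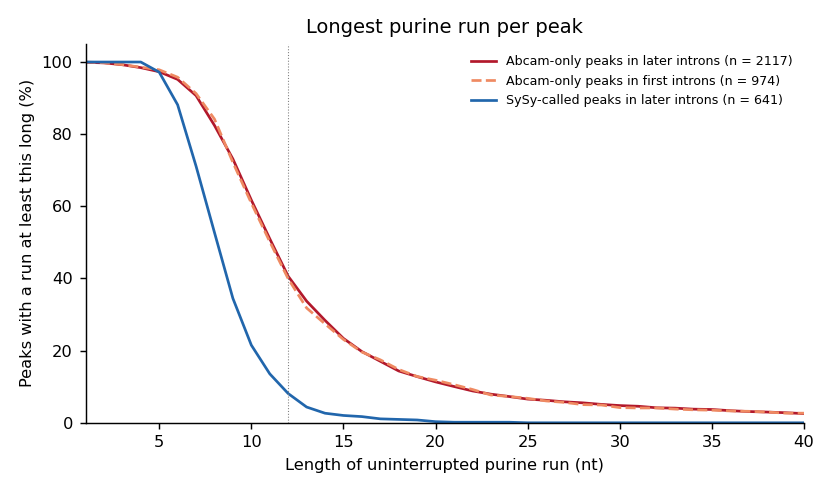
Percentage of peaks (y axis) whose longest uninterrupted purine run reaches at least the length on the x axis (nt), for members, first-intron Abcam-only peaks and SySy-called later-intron peaks, with the limit of 12 nt dotted. At 12 nt the curves stand at 40.6%, 39.9% and 8.11%.

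The run share differed with soft-masking. Of the 799 members with no masked base, 21.4% (171) had a purine run of 12 nt or more, against 53.1% of the 814 members masked over less than 50% of their bases and 50.99% of the 504 masked over at least 50%. SySy-called later-intron peaks with no masked base had such a run in 4.17% of cases (13 of 312). The median purine share of the members with no masked base was 64.7%, close to the 66.0% of all members, and that of SySy-called peaks with no masked base was 50.8%.

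Single five-letter words gave the same picture. Among 703 words found in at least 5% of the members, the 10 with the highest density in members over the rest of the host introns all consisted of A and G. GAGAG led with a ratio of 5.41 and was present in 52.4% of members. It was followed by AGAGA at 4.82 (54.7% of members), GGAGA at 4.53, GAGGA at 4.50 and AGGAG at 4.46. The remaining words of the 10 were GAGGG at 4.34, then AGAGG at 4.32, then AGGGA at 4.27, then GAAGG at 4.26 and finally GGGAG at 4.13. At the other end all 5 words were made of C and T, with TTTTT at 0.105, TCTTT at 0.155 and TCTCT at 0.157. In SySy-called later-intron peaks GAGAG had a ratio of 0.852 and AGAGA of 1.05 against the same introns. Words of A and G only made up 17.2% of all words in members, 17.0% in first-intron Abcam-only peaks, 5.96% in SySy-called later-intron peaks and 5.39% in the rest of the host introns.

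GGACT was present in 349 members (16.5%, 15.0 to 18.1%), of which 310 held 1 copy and 39 more than 1. All windows of the peaks' widths in the same introns held GGACT in 12.03% of cases. The reverse complement AGTCC, which is GGACT on the other strand, was present in 7.37% of members and 10.8% of windows. By density GGACT ranked 146 of 703 words, with a ratio of 1.58, below GGACA, which had a ratio of 2.54 and was present in 27.2% of members. In SySy-called later-intron peaks GGACT had a ratio of 3.798 and GGACA of 2.16. Words were counted on the RNA strand of the peak, and neighboring words such as GAGAG and AGAGA overlap one another.

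The GGACT share of 16.5% in members lay below the 38.1% of SySy-called later-intron peaks (244 of 641), by -21.6 points (-25.7 to -17.6, exact test, adjusted p = 4e-28). It was lower on 19 of 19 chromosomes. The wider DRACH consensus was present in 90.2% of members (1910) and 99.2% of SySy-called later-intron peaks (636 of 641), a difference of -8.998 points (exact test, adjusted p = 3.9e-18). The DRACH share of host intron windows was not computed, so 90.2% cannot be read as an enrichment. Peak width bears on it too, with medians of 134 nt in members and 159 nt in SySy-called later-intron peaks. For GGACT, against the 16.7% of first-intron Abcam-only peaks (163 of 974) the difference was -0.25 points, with an interval of -3.15 to 2.51 (exact test, adjusted p = 0.88). GGACT was found in 14.9% of the members with a purine run of 12 nt or more (128 of 860) and in 17.6% of those without (221 of 1257), with 95% Wilson intervals of 12.7 to 17.4% and 15.6 to 19.8%. Together, GGACT or a purine run was present in 1081 members, and neither in the rest.

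By location and confidence group, purine runs were present in 40.6% of the members, in 39.9% of Abcam-only first-intron peaks, in 30.02% of Abcam-only exonic peaks and in 32.4% of those in neither. In Cfg2 the lowest share was 8.25%, in later introns, and in Cfg1 the shares lay between 7.91% in later introns and 14.3% in exons.

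The members were spread over the intron. From the 5′ end of the intron, the first 25% of its length held 26.8% of their midpoints (567, 24.9 to 28.7%), and the following stretches of 25% held 28.5%, 25.9% and 18.8%. First-intron Abcam-only peaks had 33.7% in the first 25% (328 of 974), a difference of -6.89 points (-10.4 to -3.41, exact test, adjusted p = 0.00018). SySy-called later-intron peaks had 39.2% (251 of 641), a difference of -12.4 points (-16.6 to -8.20, exact test, adjusted p = 8.9e-09). Within the 135 genes that held both kinds, the shares were 31.6% in members and 34.6% in SySy-called peaks, and the difference did not pass the test (-2.92 points, exact test, adjusted p = 0.66). In introns under 2000 nt 18.02% of the members lay in the first 25%, and in introns of 50000 nt or more 38.02%.

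**Figure D3:**
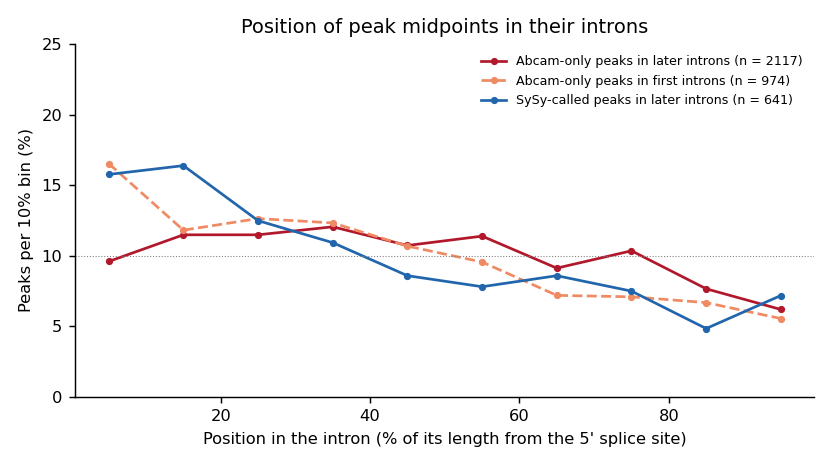
Percentage of peak midpoints (y axis) per 10% bin of intron length, counted from the 5′ splice site (x axis, %), with the level of even spread dotted at 10%. Members hold 9.59% in the first bin and 6.19% in the last, whereas first-intron Abcam-only and SySy-called later-intron peaks hold 16.5% and 15.8% in the first.

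The first 500 nt after the 5′ splice site held 265 members (12.5%, 11.2 to 13.996%), a stretch that made up 14.2% of the host introns on average. SySy-called later-intron peaks lay there in 29.5% of cases (189 of 641), on introns where the stretch made up 20.7%, and the difference was -17.0 points (-20.9 to -13.3, exact test, adjusted p = 2.5e-21). Within the 135 genes with both kinds the shares were 11.1% in members and 18.5% in SySy-called peaks, a smaller difference of -7.41 points (exact test, adjusted p = 0.044). First-intron Abcam-only peaks lay there in 11.7% of cases (114 of 974; difference 0.813 points, -1.74 to 3.20, exact test, adjusted p = 0.65), where the stretch made up 6.72% of their longer introns. The first 100 nt of the intron held 45 members (2.13%, 1.59 to 2.83%), against 3.50% of host intron bases.

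Within 500 nt of the 3′ splice site lay 267 members (12.6%), against 102 SySy-called later-intron peaks (15.9%), a difference of -3.30 points (-6.62 to -0.284, exact test, adjusted p = 0.048). With 1 peak per intron it did not pass the threshold, and against Cfg1 alone it was 3.13 points. First-intron Abcam-only peaks lay there in 4.72% of cases (46 of 974), a difference of 7.89 points (5.86 to 9.77, exact test, adjusted p = 2.6e-12). The median host intron was 7715 nt for a member and 25160 nt for a first-intron Abcam-only peak, and the 500-nt stretch took 14.2% and 6.72% of their introns. Between 100 and 250 nt before the 3′ splice site the members were sparse, with 45 midpoints (2.13%, 1.59 to 2.83%) on 4.37% of host intron bases, and SySy-called later-intron peaks had 2.96% there on 6.61% of theirs.

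Positions exonic in another annotated transcript of the strand held 172 members (8.12%, 7.04 to 9.37%), and such positions made up 7.77% of the host introns on average. SySy-called later-intron peaks lay there in 44.3% of cases (284 of 641) on introns with 27.2% of such bases. The difference of -36.2 points was the widest of the comparisons with SySy-called peaks (-40.2 to -32.2, exact test, adjusted p = 1.1e-87). First-intron Abcam-only peaks lay there in 5.95% of cases (58 of 974), and the difference of 2.17 points was at the limit of the test (0.179 to 3.98, exact test, adjusted p = 0.048), which it did not pass with 1 peak per intron. Members in short introns lay there most often, in 19.8% of cases for introns under 2000 nt and in 1.93% for introns of 50000 nt or more.

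The midpoint of 602 members (28.4%) was soft-masked, on host introns with 26.6% masked bases. It was masked in 20.7% of SySy-called later-intron peaks (133 of 641), a difference of 7.69 points (3.88 to 11.2, exact test, adjusted p = 0.00018), which was -0.417 points against Cfg1 alone and did not pass the test where at least 50% of the bases had to be masked. In first-intron Abcam-only peaks it was masked in 26.1% of cases (254 of 974; difference 2.36 points, -1.05 to 5.66, exact test, adjusted p = 0.23).

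The intron numbers of the members ran from 2 to 92, the highest in Mdn1. Intron 2 held 429 members (20.3%), intron 3 held 322 (15.2%), introns 4 to 5 held 361, introns 6 to 10 held 529, introns 11 to 20 held 323 and later ones 153. Per length, introns 2 and 3 of the host genes held 26.4 and 28.9 members per Mb, and introns past the 20th held 14.9 per Mb. These lengths came only from genes chosen for holding a member, and over all genes there were 2.82 members per Mb. The choice bears unevenly on intron numbers, since a gene with 2 introns had its members in intron 2. By these classes of intron number the purine run share lay between 38.4% in introns 6 to 10 and 45.8% past intron 20, which was not tested. The median purine share lay between 65.2 and 66.8% in all of these classes. The last intron of the transcript, which can have any of these numbers, held 199 members, of which 36.7% had a purine run.

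The members lay in 1591 introns of 1268 genes, which were 5.43% of the 23346 genes with at least 2 introns and 25.02% of the 5068 such genes with a peak of any list. Later introns of the host genes spanned 40.3 kb in the median gene, against 10.04 kb over all genes with at least 2 introns. Over the 5068 with a peak of any list the median was 19.9 kb. Of the genes with 50 to 200 kb of later intron, 15.5% held a member, and of those with under 5 kb 0.665%. Per length, there were 4.03 members per Mb in the genes with under 5 kb, 4.33 per Mb between 20 and 50 kb and 1.22 per Mb in those over 200 kb. Coding genes held 2062 members, and 25 noncoding genes held 55. Of the host genes, 593 (46.8%) carried no SySy-called peak at all in their representative transcript. That share is a description, since Abcam-only peaks were defined by a lack of SySy signal and no matching share for other genes is given.

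Most introns held a single member, and some held a row of them. One member was found in 1270 introns, 2 in 213 introns and 3 or more in 108, which together held 421 members. Of the 526 neighboring pairs within an intron, 265 (50.4%) were under 500 nt apart by midpoint. The calls bear on these counts, as 430 members (20.3%) were pieces of a broader called peak and the 2117 members went back to 1897 called peaks. The members were 64 to 250 nt wide, with a median of 134 nt, and SySy-called later-intron peaks had a median width of 159 nt.

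The Abcam-only list was defined by a lack of SySy signal, so nearby SySy-called peaks are given as a description. Within 500 nt of the midpoint 47 members (2.22%) had a SySy-called peak on the same strand, within 250 nt 21 and within 1000 nt 90. Of first-intron Abcam-only peaks 3.39% had one within 500 nt. In 75 of the 1591 host introns there was a SySy-called peak as well, and those introns held 128 members.

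The 20 genes with the most members held 187 of them (8.83%), and 14 of the 20 had no SySy-called later-intron peak. Of all 1268 host genes, only 135 held such a SySy-called peak, so its absence was not particular to the 20. Among the 14 genes with 7 members, the 10 with the shortest later introns were taken. Tenm4, which encodes a teneurin transmembrane protein of cell adhesion (chr7:96211671-96908554, plus strand), came first with 22 members in 7 of its 32 introns, from 19 called peaks. A purine run was present in 8 of them and GGACT in 1. Exoc4, the gene of an exocyst subunit that tethers secretory vesicles (chr6:33249085-33973979, plus strand), held 18 members in 7 introns, 8 with a purine run and 1 with GGACT. Etl4 held 12 members, and Enox1, a cell-surface oxidoreductase gene, held 10, of which 3 had GGACT.

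**Figure D4:**
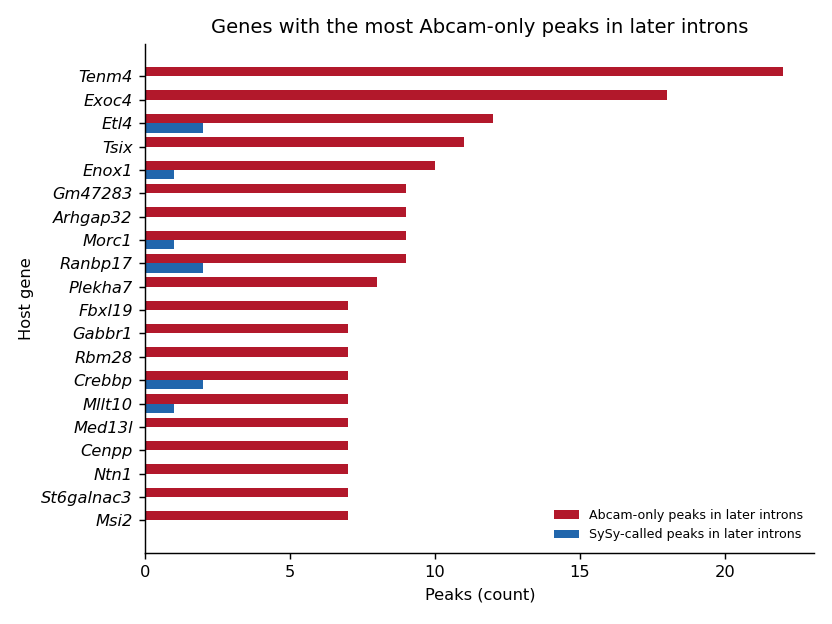
Number of Abcam-only later-intron peaks (red) and SySy-called later-intron peaks (blue) in each of the 20 genes with the most members, ordered from 22 in Tenm4 to 7 in Msi2 (x axis, count). None of the 20 genes plotted has more than 2 SySy-called later-intron peaks, while Dst, which also holds 7 members and was left out by the tie-break on intron length, has 6.

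The genes with 9 members each were Arhgap32, a GTPase-activating protein gene, Morc1, a germline silencing gene, Ranbp17 and Gm47283. In Morc1, 7 of the 9 had a purine run, the longest of 60 nt, and in Arhgap32 none had one. Plekha7, an adherens junction gene, held 8. The genes with 7 each included Fbxl19, Gabbr1, Rbm28, the acetyltransferase gene Crebbp, Mllt10, the Mediator gene Med13l, the centromere gene Cenpp, the netrin gene Ntn1, St6galnac3 and the RNA-binding protein gene Msi2. Their densities differed widely, with 397 members per Mb of later intron in Fbxl19, 299 in Gabbr1 and 214 in Rbm28, against 18.8 in Msi2 and 25.6 in Exoc4. The splitting of broad peaks bears on these densities. The Fbxl19 members came from 3 called peaks, those of Gabbr1 and Rbm28 from 5 each, those of Msi2 from 6 and those of Exoc4 from 16. The median purine share of the members lay above 50% in each of the 20 genes, between 58.9% in Cenpp and 79.4% in Gm47283.

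**Figure D5:**
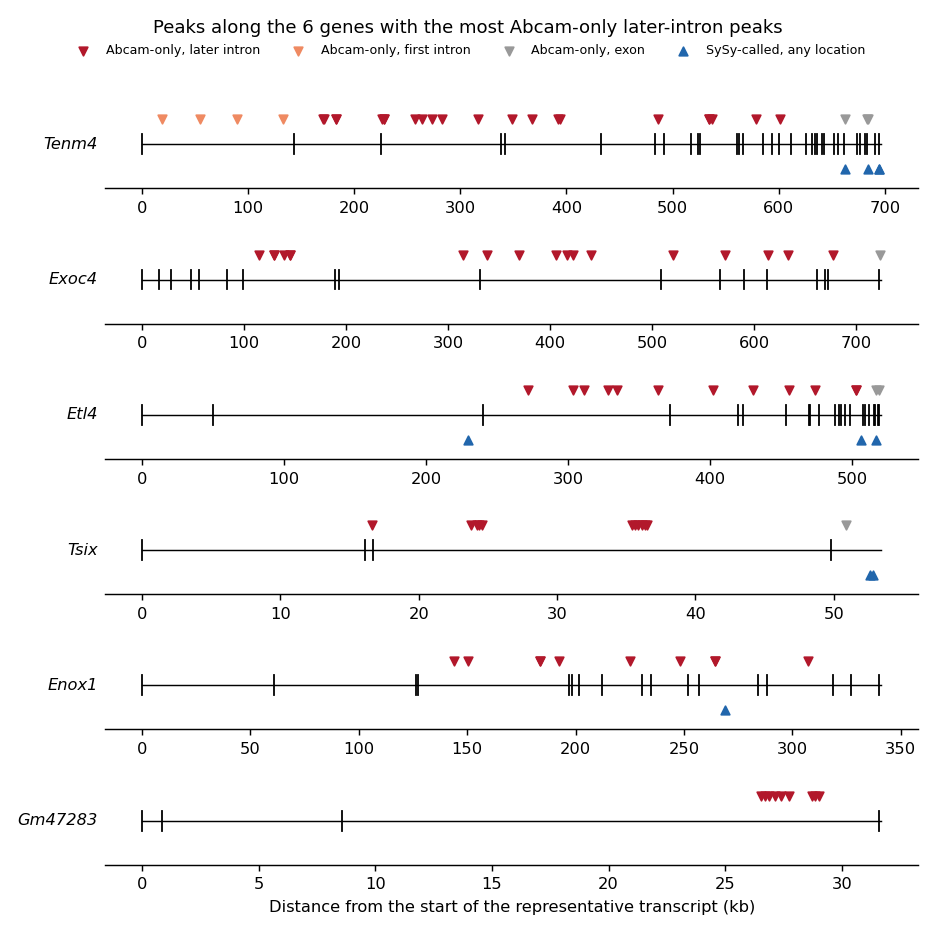
Positions of peaks along the representative transcript of the 6 genes with the most members (x axis, kb from the transcript start), with exons as vertical bars, Abcam-only peaks above the line (red in later introns, orange in the first intron, grey in exons) and SySy-called peaks below it in blue. In Tenm4 and Exoc4 the members are spread over 7 introns each, while in Tsix and Gm47283 they stand in tight rows.

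The introns with the most members held them either in tight rows or far apart. Intron 3 of Tsix, the antisense noncoding RNA that represses Xist, held 10 (chrX:103448315-103481274, plus strand, 32960 nt) from 5 called peaks, in a row from 6972 to 7801 nt and another from 18584 to 19698 nt past the 5′ splice site. None of them held GGACT, and 2 held a purine run. The row nearer to the 5′ splice site had purine shares of 54.1 to 58.5%, and the further row of 71.0 to 77.1%. Of all 11 Tsix members, 6 lay opposite an exon of a gene on the other strand. Intron 3 of Gm47283 on chromosome Y held 9 from 2 called peaks, between 17877 and 20353 nt past the splice site, all with soft-masked midpoints and with purine shares of 76.1 to 81.4%.

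Intron 3 of Tenm4 held 8 members over 113153 nt. There were 7 each in intron 5 of Cenpp, intron 3 of St6galnac3, intron 7 of the DNA repair gene Rad51b and intron 4 of Immp2l, a mitochondrial protease gene, the shortest of which, in Cenpp, was 161496 nt long. The Cenpp members, all with soft-masked midpoints, lay only between 27441 and 34145 nt past the 5′ splice site. Those of Rad51b lay between 24174 and 243190 nt. In Immp2l 6 of the 7 had a purine run. Rbm28, a nucleolar protein gene of ribosome biogenesis, held 6 in its intron 9 (chr6:29143664-29152281, minus strand), an intron of 8618 nt, and 3 of these held GGACT. Gm14230, a noncoding gene, and Dyrk1a held 6 each in intron 3 and intron 2.

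The gene lists below were chosen with earlier results of these data known, and their counts are read against the shares over all genes, 5.43% of those with 2 introns and 25.02% of those that also held a peak of any list. The lists differ in intron length. The median gene had 51.4 kb of later intron in chromatin remodelers and 42.9 kb in genes of histone acetylation and deacetylation. It had 7.18 kb in SR genes and 10.04 kb over all genes. Among genes with a peak of any list, the share with a member rose with this length. It was 5.79% below 5000 nt, 17.0% from 5000 to 20000 nt and 29.6% from 20000 to 50000 nt. From 50000 to 200000 nt it was 43.6%, and beyond that 64.5%. The list shares were not adjusted for length. A gene counted as having a peak of any list even when a member was its only peak. Genes of histone acetylation and deacetylation had the highest share of the 28 lists, with 11 of 27 (40.7%), which were 64.7% of those with any peak. Crebbp held 7 members, and Ncor1, a corepressor that binds deacetylases, held 4. Of the histone lysine demethylases 8 of 21 held a member (50.0% of those with any peak), led by Kdm4c with 4 and Kdm1a and Kdm2b with 3 each. These came from 4 called peaks in Kdm4c, 2 in Kdm1a and 1 in Kdm2b. Chromatin remodelers had 14 of 38 (51.9% of those with any peak), with 4 in Arid2 and 3 each in Smarca5 and Ino80. The Smarca5 members came from 1 called peak and the Ino80 members from 3. Histone lysine methyltransferases had 6 of 31 (23.1% of those with any peak), with 5 members in Smyd3, whose later introns span 464835 nt. Polycomb genes had 3 of 35 (17.6% of those with any peak), namely Phc1 with 3 members, Kdm2b and Rybp. Genes of DNA methylation and its oxidation had 4 of 17 (30.8% of those with any peak).

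Among RNA-processing genes, the RNA-binding splicing regulators had 9 of 34 (52.9% of those with any peak), with 7 members in Msi2, 4 in Rbfox2 and 3 in Tial1. SR splicing factors and U2AF had 3 of 23, out of 15 with any peak, namely Srrm2 and Acin1 with 3 members each and Srsf10 with 2. Among those with any peak the share, 3 of 15, lay below the 25.02% over all genes with a peak of any list. In such genes with 5000 to 20000 nt of later intron the share was 17.0%, and the median SR gene had 7.18 kb. These 8 members made 25.3 per Mb of later intron, against 2.82 per Mb over all genes. That density rested on the 3 genes named, with 2 called peaks in Srrm2, 3 in Acin1 and 1 in Srsf10. Of the 23346 genes with at least 2 introns, only 5068 held a peak of any list. All 3 Srrm2 members had a purine run, and both Srsf10 members were exonic in another transcript. Of the m6A writers 1 of 10 held members (16.7% of the 6 with any peak). It was Mettl16, a methyltransferase of U6 snRNA, with 2 in intron 2 from 1 called peak, 1 of them with GGACT. Of the m6A readers and erasers 4 of 14 did, Ythdf3 with 2 and the others with 1 each.

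Pluripotency factors had 5 of 25 (29.4% of those with any peak), with 2 members each in Esrrb and Tcf3 and 1 in each of the others. Both Esrrb members had a purine run, and the Tcf3 members had none, with purine shares of 29.4 and 30.8%. This Tcf3 entry was taken by gene name and is the gene at chr10:80409547-80433643. It is a different gene from Tcf7l1, which was counted in the Wnt list. Signaling lists had 2 of 31 for TGF-beta, BMP and Nodal (10.5% of those with any peak), 3 of 39 for Wnt, Notch and Hedgehog (12.5%) and 4 of 38 for FGF and receptor tyrosine kinases (21.1%). Lefty2, a Nodal antagonist, held 3 members side by side in intron 3, from 1 called peak, all with soft-masked midpoints and purine shares of 51.7 to 52.5%. Gli2, a Hedgehog transcription factor gene, held 4, Tcf7l1 held 3 and Igf1r, the insulin-like growth factor receptor gene, held 3.

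Of 9 exocyst genes, 8 had at least 2 introns and 3 held members (50.0% of the 6 with any peak). These were Exoc4 with 18 and Exoc2 and Exoc6b with 1 each. Teneurin, protocadherin and Fat genes had 2 of 31 (22.2% of the 9 with any peak), Tenm4 and the cadherin gene Cdh4, on later introns that summed to 10.1 Mb. Neuronal synaptic adhesion genes had 0 of 23, with 14.3 Mb of later intron and only 4 genes with a peak of any list. Receptor protein tyrosine phosphatases had 3 of 21, which were 3 of the 4 with any peak, with 3 members each in Ptprf and Ptprk. Kinesins and dyneins had 8 of 60 (33.3% of those with any peak), led by Dnah8 with 2.

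DNA repair genes had 9 of 41 (31.0% of those with any peak). Rad51b held 7 members and the mismatch repair gene Msh3 held 5. Replication genes had 5 of 23 (31.3% of those with any peak). Pola1, the gene of the catalytic subunit of DNA polymerase alpha, held 6 members, 5 of which had a purine run. Cep and Cenp genes had 15 of 57 (44.1% of those with any peak), led by Cenpp. Solute carriers had 16 of 328 (21.3% of those with any peak). Zfp zinc finger genes had 27 of 365 (13.5% of those with any peak), with 6 members in Zfp704. Ubiquitin-specific proteases had 5 of 51 (16.1% of those with any peak), with 3 in Usp48. Ribosomal protein names had 7 of 89 (43.8% of the 16 with any peak), including the kinase gene Rps6ka2, which the name pattern also takes in. Oxidative phosphorylation genes had 8 of 85 (50.0% of the 16 with any peak), where Cox6b2 held 2.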

How the data were processed

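ChrMeRIP and input libraries were sequenced in duplicate for each of 2 antibodies in E14 cells. The authors called peaks on the pooled duplicates with MACS2 version 2.1.1 (mm10), set each peak's strand from its strand-specific enrichment, cut intervals to at most 250 nt around the summit and split broad peaks. The deposited score column holds 0 throughout, and the other deposited columns hold chromosome, start, end, name and strand. The labels give the TruSeq kit for the libraries, whereas the study's methods give it for Abcam and NEBNext for SySy.

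Peaks were placed by midpoint with 35325 representative transcripts (GENCODE vM21), with pseudogenes, immune receptor segments and small structured RNA genes left out. A sample of 1418 transcripts was spliced from the assembly, and 1418 equalled the transcript sequences. Members with several hosts (60) went to the gene with the shortest intron. In 1 SySy peak a stray character after the strand was dropped. Shares were compared by two-sided Fisher's exact tests in Python 3.11.15 with scipy 1.17.1, adjusted together over 14 tests (7 measures against each of 2 sets), at a threshold of 0.05. Words, composition, gene counts and distances are descriptions without a test. The tests treat peaks as independent, although some share a gene, an intron or a called peak, so p-values measure counting of peaks and not the spread between libraries. The procedure was tested on simulated data in which peaks were independent, unlike the peaks here. That test therefore cannot show how the p-values hold for peaks that share an intron or a called peak. Named were the 20 genes and 10 introns with the most members, up to 3 genes per list (ties among genes by shorter later introns), the 10 words with the highest and the 5 with the lowest ratio, and the sequences with extreme values of each class. The members and lists were chosen with earlier results of these data known. Some items are not reported here.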

Additional observations from a re-analysis of the deposited data

How the results depend on the processing

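Of 134 repeats of the share comparisons under other settings, 108 kept their direction and their side of the threshold. The lower GGACT and higher purine run share of the members against SySy-called later-intron peaks did so under every setting run, although the motif difference shrank to -8.998 points with DRACH in place of GGACT, and the purine run difference to 18.03 points with runs of 16 nt and to 17.2 in peaks with no masked base. The 5′ splice site difference against SySy-called peaks kept its call but was -9.30 points within 200 nt and -7.41 in genes with both kinds of peak. With the longest transcript per gene there were 1933 members, 1896 of them among the 2117, with all gene types 2116, with the whole interval inside the intron 2032, and without positions exonic in any transcript 1945.

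Most changes of sign were in differences that had not passed the test, against first-intron peaks. For GGACT against first-intron peaks the difference was 1.09 points with 1 peak per intron, 1.47 with 1 per gene, 0.0117 with exactly 1 host gene, 0.411 in fixed windows around the midpoint and 0.582 in genes with both kinds of peak. For the 5′ splice site share against first-intron peaks it was -0.0095 points with 1 peak per intron and -2.19 in peaks with no masked base, and it reached 1.87 points, past the threshold, within 200 nt. The purine run share against first-intron peaks was -0.20 points with the longest transcript. The repeat share against first-intron peaks was -2.42 points in genes with both kinds and 3.79, past the threshold, for peaks with at least 50% masked bases. Called differences changed sign as well. The repeat share against SySy-called peaks, 7.69 points in the main comparison, was -0.417 points against Cfg1 alone, and 3.84, no longer past the threshold, by the 50% rule.

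The alternative exon share against first-intron peaks fell short of the threshold at 2.35 points with 1 peak per intron, 2.78 with 1 per gene, 2.08 with all gene types, 2.17 with 1 host gene, 2.14 in genes with both kinds and 2.35 without masked bases. The 3′ splice site share against SySy-called peaks did so at -3.90, -2.84 and -2.82 points with 1 peak per intron, per gene and with 1 host gene, at -2.36 in genes with both kinds and at -5.24 without masked bases, and changed sign to 3.13 points against Cfg1 alone. The share in the first 25% of the intron against SySy-called peaks was -2.92 points in genes with both kinds. The cause of these changes was not tested. The settings on genes with both kinds and on unmasked peaks were chosen after seeing the data.

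No paired analysis was possible because the lists are pooled over the duplicates. For the same reason no replicate was left out. A stricter peak threshold was not run, since the score column is 0 throughout, and the depth behind each peak is unknown.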

Other observations

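A small group of members was rich in pyrimidines instead. In 30 members (1.42%) purines made up under 40% of the bases, and 10 of these had a pyrimidine run of 12 nt or more. In intron 5 of Slc36a2, an amino acid transporter gene, 2 adjoining members of 137 and 144 nt had no purine at all, and in intron 2 of Tns2, a focal adhesion gene, a member of 250 nt had 1.60%. The midpoints of all 3 were soft-masked. In intron 5 of Gabbr1 2 adjoining members had purine shares of 21.7 and 21.9%, while the other 5 Gabbr1 members had 65.4 to 68.6%. A gene on the other strand spanned 1 of the 30, against 96 of all 2117 members (4.53%). These genes were chosen after their values were seen, and no cause was tested.

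Few members met other annotated RNAs on their own strand. Small Cajal body RNAs overlapped 3 members, small nucleolar RNAs 2 and pseudogenes 10, and 31 members (1.46%) had their midpoint opposite an exon of the other strand.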
